A study of Mus musculus with 18 samples.

Results

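The nuclear-encoded genes of the mitochondrial respiratory chain were followed, complex by complex, through 18 mouse heart libraries. They were taken by name, as protein-coding genes whose symbols begin with Ndufa, Ndufb, Ndufc, Ndufs or Ndufv, Uqcr, Cox4 to Cox8 or Atp5, and Sdha to Sdhd. The rule found 94 of 54532 genes under 93 symbols, since Atp5o stood under 2 gene IDs. Of these, 38 carried names of complex I, 4 of complex II, 8 of complex III, 18 of complex IV and 18 of complex V. The 8 Ndufaf genes, which encode assembly factors of complex I, were kept apart. The filter on low counts kept 91 of the 94. Cox7b2 (at most 0.319 FPKM in a library), Cox8c and the second Atp5o ID (both at 0 in every library) were not tested.

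RNA came from the apex of hearts of mice labelled wild type in genotype, in 6 groups of 3 libraries and 2 batches. Batch LC held hearts labelled Lmna shRNA, hearts labelled Lmna shRNA and lamin C (the lamin C hearts), and controls. Batch LA held hearts labelled Lmna shRNA, hearts labelled Lmna shRNA and lamin A (the lamin A hearts), and controls. Lmna encodes both lamin A and lamin C. The series asked what raised lamin A or lamin C does in a dilated cardiomyopathy made by knocking Lmna down, with delivery by recombinant adeno-associated virus (rAAV9). Age, sex, promoter, dose and what the controls received are not stated in the labels. Each lamin was used in 1 batch, so the lamins are compared through the other hearts of their own batches. In the labels, control replicate 3 of batch LC and that of batch LA carry adjacent numbers, apart from the other libraries of their batches. Whether they were handled with the rest of their batch is not stated, and as an alternative they were left out together. The labels do not say whether the 3 libraries of a group came from separate animals, so p-values measure the spread between these libraries.

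The respiratory chain passes electrons from reduced cofactors to oxygen. Complex I oxidises NADH, complex II (succinate dehydrogenase) oxidises succinate, complex III passes electrons to cytochrome c, complex IV (cytochrome c oxidase) reduces oxygen, and complex V (ATP synthase) makes ATP from the proton gradient. Most subunits are encoded in the nucleus, a few in mitochondrial DNA, and heart muscle is rich in all of them. Several complex IV subunits come as pairs, with a form of heart and skeletal muscle (Cox6a2, Cox7a1, Cox8b) and a form found in most tissues (Cox6a1, Cox7a2, Cox8a).

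Total counts lay between 31418657 and 41259968 per library. Levels are FPKM, fragments scaled to gene length and library size, and changes are log2 fold changes from the quasi-likelihood test of edgeR on the counts, called at an adjusted p under 0.05 over 17876 genes. In bulk RNA the targeted gene was not lower in the libraries labelled shRNA, so the label is not borne out at this level. Lmna stood at 22.8, 22.4 and 19.1 FPKM in hearts labelled shRNA, against 20.6, 21.5 and 20.1 FPKM in controls of batch LC (log2 fold change 0.06 ± 0.08, edgeR adjusted p = 0.578). In batch LA it stood at 21.2, 20.3 and 21.7 FPKM in hearts labelled shRNA, against 20.1, 20 and 18.8 FPKM in controls (0.11 ± 0.08, edgeR adjusted p = 0.258). Bulk RNA mixes all cells of the apex and cannot show whether Lmna was lower in any one cell type. Lmna was at 179 to 229.8 FPKM in lamin C hearts and 83.7 to 92.7 FPKM in lamin A hearts. Mitochondrially encoded genes took 14.4% ± 1.35 of counts in hearts labelled shRNA, 24% ± 0.797 in lamin C hearts and 25.4% ± 0.149 in controls of batch LC, and 14.4% ± 0.562, 21.3% ± 1.16 and 26.7% ± 0.326 in hearts labelled shRNA, lamin A hearts and controls of batch LA (SD, n = 3 each).

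In summed FPKM the whole chain stood at about 50% of control in hearts labelled shRNA. As a share of all counts the fall was smaller. Complexes I to V took 2.53% ± 0.177 of counts in hearts labelled shRNA and 3.94% ± 0.0416 in controls of batch LC. In batch LA they took 2.56% ± 0.0846 and 3.84% ± 0.0169. Lamin C hearts stood at 3.64% ± 0.188 and lamin A hearts at 3.08% ± 0.0277 (SD, n = 3 each). The summed FPKM of complexes I to V was 53.5%, 50.6% and 44.4% of the control mean in the libraries labelled shRNA of batch LC, against 101%, 98.5% and 100.3% in its controls. In batch LA it was 51.3%, 52.8% and 47.9%, against 99.8%, 101% and 98.8% in controls, and no library labelled shRNA came near a control. Complex II was lowest, at 41.4% ± 3.97 in batch LC and 43.9% ± 1.44 in batch LA. Complex I stood at 50.4% ± 5.04 and 51.4% ± 2.52, complex III at 51.8% ± 5.82 and 52.7% ± 3.07, complex IV at 49.8% ± 5.07 and 50.9% ± 2.88, and complex V at 48.6% ± 3.47 and 49.9% ± 2.06 (SD, n = 3 each). The Ndufaf assembly factors stood at 54.3% ± 7.38 and 56% ± 1.94.

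**Figure D1:**
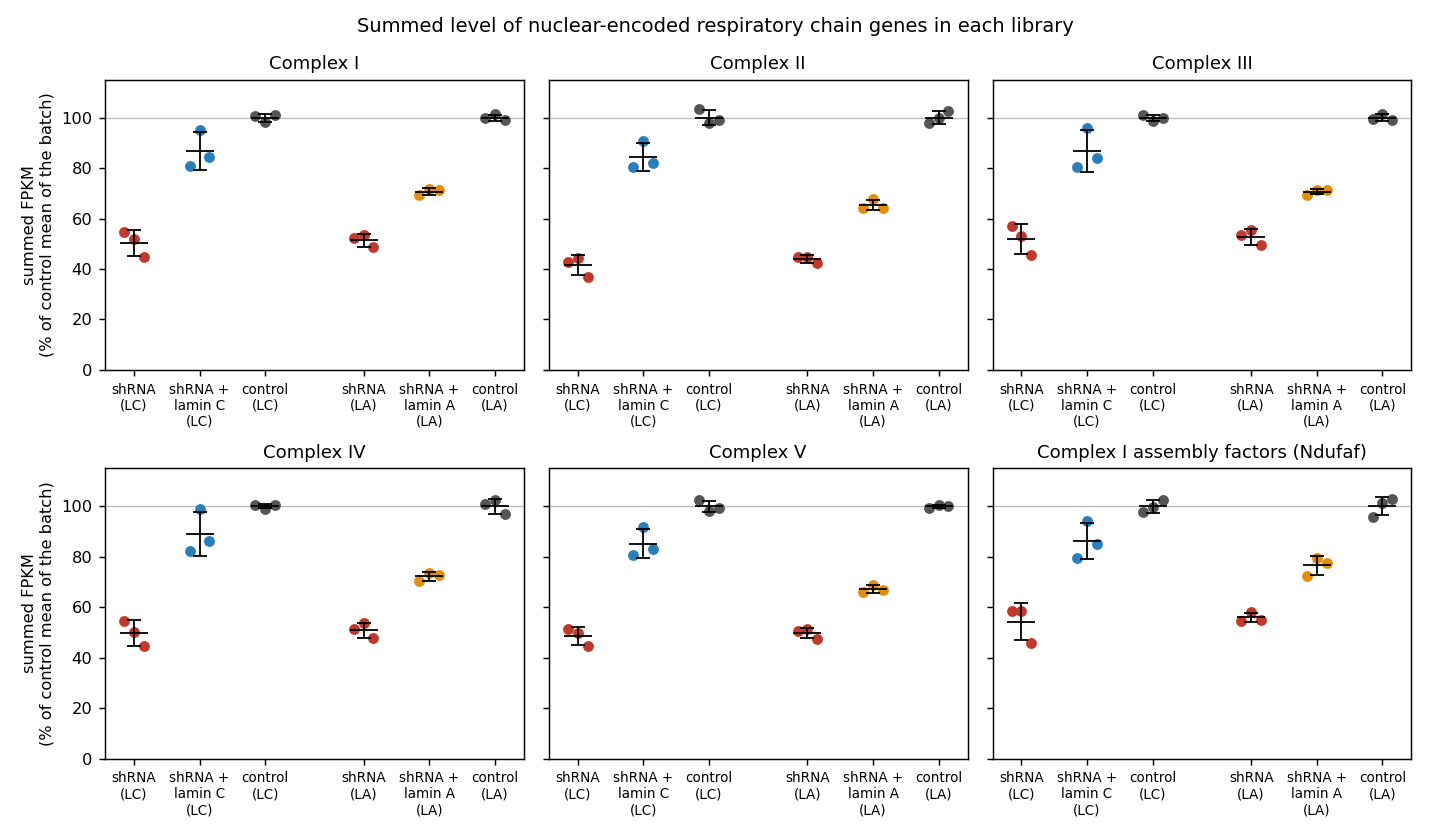
Summed FPKM of each complex in each library, as a percentage of the control mean of the same batch. Points are libraries and the marks with bars are the mean and SD of 3 libraries; hearts labelled shRNA lie at 36.9% to 58.6%, lamin C hearts at 79.7% to 98.9%, lamin A hearts at 64.1% to 79.5% and controls at 95.9% to 103.3%.

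Gene by gene, 79 of the 83 tested genes of complexes I to V fell in hearts labelled shRNA of batch LC and 3 rose, where 29.6% of all tested genes were called lower and 33.3% higher. Their median log2 fold change was -0.99, against 0.05 over all genes. In batch LA 80 fell and 1 rose, where 29% of all genes were called lower and 32.4% higher, with a median of -0.96 against 0.05. All 8 Ndufaf genes fell in both batches, with medians of -0.68 and -0.62. FPKM ranges lay below those of controls without overlap for 79 genes of complexes I to V in batch LC (30.7% of all genes) and 80 in batch LA (32.4% of all genes). Scaled by library totals alone, which raised the median of all genes by 0.424 in batch LC and 0.437 in batch LA, 79 of the 91 members were lower and 4 higher in batch LC, and 77 lower and 4 higher in batch LA. Of all genes 13.5% were called lower in batch LC with this scaling, and 12.7% in batch LA. The medians of complexes I to V were then -0.56 and -0.52. Of the 8 Ndufaf genes 6 were still called lower in batch LC with this scaling, and 3 in batch LA (Ndufaf1, Ndufaf4 and Ndufaf6).

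**Figure D2:**
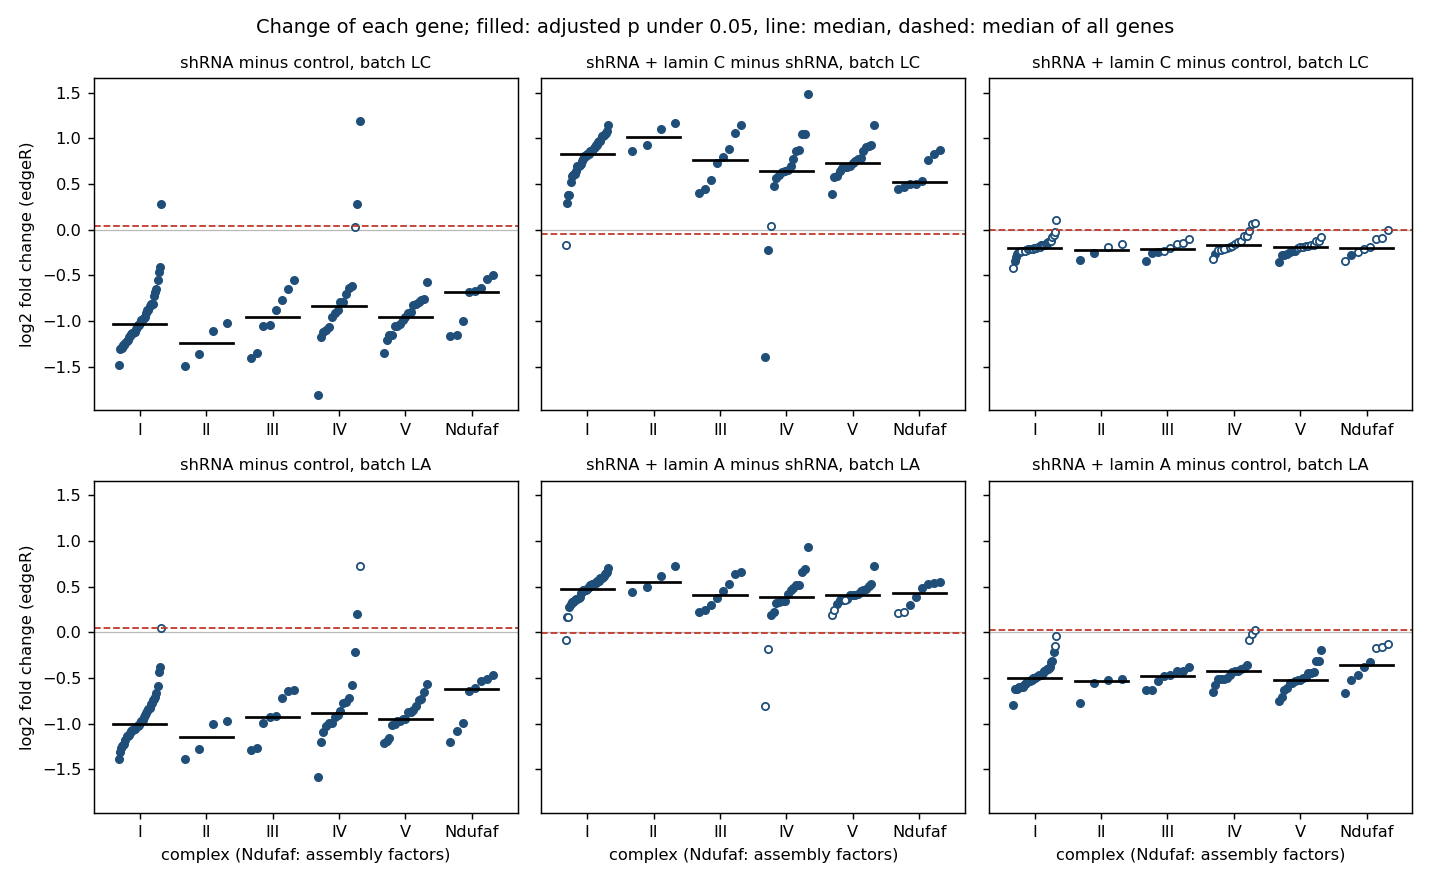
Log2 fold change of each tested gene by complex in the 6 comparisons of groups within a batch. Filled points passed an adjusted p of 0.05, lines are medians of a complex and the dashed line is the median of all genes; medians of complexes I to V lie between -1.24 and -0.83 for shRNA minus control in batch LC, and between -0.22 and -0.17 for lamin C minus control.

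Complex I fell in 37 of 38 genes in each batch, with medians of -1.03 in batch LC and -1.002 in batch LA. Ndufs1 (chr1:63143596-63176833, mm10), which carries iron-sulfur clusters of the electron path, fell furthest. It stood at 39.5, 43.9 and 35.5 FPKM in hearts labelled shRNA, against 116, 109 and 109 FPKM in controls of batch LC (-1.48 ± 0.07, edgeR adjusted p = 1.4e-12). The libraries of batch LA stood at 40.5, 41.3 and 39.4 FPKM in hearts labelled shRNA, against 104, 104 and 111 FPKM in controls (-1.39 ± 0.07, edgeR adjusted p = 3.34e-12). The groups did not overlap in either batch, although Ndufs1 is uncertain because Eef1b2 overlaps it on the other strand (mean counts 20720 for Ndufs1 and 4915 for Eef1b2) and no source states the strand setting of the counting. Ndufv1, the subunit that binds NADH, stood at 128, 133 and 123 FPKM in hearts labelled shRNA and 315, 299 and 298 FPKM in controls of batch LC, and fell by 1.24 ± 0.05 there and 1.24 ± 0.05 in batch LA on the log2 scale. The shallowest falls were those of the accessory subunits Ndufb6 (-0.41 ± 0.07 and -0.38 ± 0.07) and Ndufa11 (-0.46 ± 0.07 and -0.43 ± 0.07). Ndufb6 stood at 165, 142 and 136 FPKM in hearts labelled shRNA and 196, 193 and 203 FPKM in controls of batch LC, without overlap. Neither was called when scaled by library totals alone: Ndufb6 then had values of 0.0126, edgeR adjusted p = 0.874, in batch LC and 0.0549, edgeR adjusted p = 0.472, in batch LA. Ndufa11 had values of -0.0335, edgeR adjusted p = 0.638, in batch LC and 0.00706, edgeR adjusted p = 0.923, in batch LA.

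The 7 nuclear-encoded core subunits of complex I, which hold the redox centres, all lay beyond -1 in batch LC, between -1.48 and -1.13 with a median of -1.24. Of the 31 other genes named with complex I, 13 lay beyond -1, with a median of -0.97. In batch LA the medians were -1.23 for the core subunits and -0.92 for the others. This grouping has no test here. Core subunit genes ran from 963 to 8086 bases of counted length and the others from 419 to 6883.

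Complex II, shared with the citric acid cycle, fell in all 4 genes. Sdha (chr13:74322254-74350280, mm10), the flavoprotein that oxidises succinate, stood at 145, 159 and 133 FPKM in hearts labelled shRNA, against 429, 406 and 400.1 FPKM in controls of batch LC (-1.49 ± 0.06, edgeR adjusted p = 6.76e-13). Batch LA gave 152, 156 and 149.6 FPKM in hearts labelled shRNA, against 391, 395 and 413 FPKM in controls (-1.38 ± 0.06, edgeR adjusted p = 1.65e-12). The groups were far apart in both batches. The iron-sulfur subunit Sdhb followed (log2 fold changes -1.36 ± 0.07 and -1.27 ± 0.07), then the membrane anchors Sdhc (-1.11 ± 0.07 and -1.005 ± 0.07) and Sdhd (-1.02 ± 0.07 and -0.97 ± 0.07). The order of the values was the same in both batches.

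Complex III fell in all 8 genes, with medians of -0.96 and -0.92. Uqcrc1, a core protein, stood at 118, 125 and 98.4 FPKM in hearts labelled shRNA, against 312, 302 and 292 FPKM in controls of batch LC (-1.40 ± 0.07, edgeR adjusted p = 5.22e-12). The Rieske iron-sulfur protein Uqcrfs1 had log2 fold changes of -1.35 ± 0.08 and -1.29 ± 0.08. Uqcr10, a small subunit, fell least: it stood at 307, 275 and 253 FPKM in hearts labelled shRNA and 417, 407 and 402 FPKM in controls of batch LC (-0.55 ± 0.08, edgeR adjusted p = 8.4e-06). Neither Uqcrc1 nor Uqcr10 overlapped its controls. The call of Uqcr10 in batch LC was lost with scaling by library totals alone (-0.121, edgeR adjusted p = 0.149).

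Complex IV varied most between its genes. In batch LC 13 of 16 tested genes fell, 2 rose (Cox6a1 and Cox6b2) and Cox8a was not called; in batch LA 14 fell, 1 rose (Cox6a1) and Cox6b2 was not called. Cox7a1 (chr7:30184144-30186078, mm10), the heart and muscle form of subunit VIIa, had the deepest fall of the 91 genes in both batches. It stood at 325, 310.2 and 196 FPKM in hearts labelled shRNA, against 968, 967 and 992 FPKM in controls of batch LC, 0.285 times the control level (-1.81 ± 0.13, edgeR adjusted p = 4.37e-10). Batch LA gave 274, 308 and 266 FPKM in hearts labelled shRNA, against 859, 857 and 834 FPKM in controls (-1.58 ± 0.13, edgeR adjusted p = 3.02e-09). Cox4i1, the main form of subunit IV, stood at 499, 485 and 442 FPKM in hearts labelled shRNA and 1021, 987 and 987 FPKM in controls of batch LC and fell by 1.06 ± 0.06 on the log2 scale. The small subunits Cox6c and Cox7c fell by 0.88 ± 0.08 and 0.79 ± 0.08 in that batch.

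Complex V fell in all 17 tested genes in both batches, with medians of -0.95 and -0.94, and its genes were the most alike (SD over genes 0.20 in batch LC, against 0.69 for complex IV). Atp5a1 and Atp5b encode the catalytic head. Atp5a1 stood at 664, 697 and 621 FPKM in hearts labelled shRNA, against 1591, 1515 and 1498 FPKM in controls of batch LC (-1.21 ± 0.06, edgeR adjusted p = 1.18e-12). Atp5b stood at 649.5, 665 and 630.5 FPKM, against 1349, 1290 and 1241 FPKM in controls (-0.99 ± 0.05, edgeR adjusted p = 4.02e-12). Both genes were clear of their controls. The genes of the membrane ring subunit c, Atp5g1, Atp5g2 and Atp5g3, fell by 1.35 ± 0.07, 0.76 ± 0.07 and 1.15 ± 0.06 in that batch. The small subunit Atp5mpl fell least, by 0.58 ± 0.10 and 0.57 ± 0.10, and was not called in either batch with scaling by library totals alone (-0.151, edgeR adjusted p = 0.153, in batch LC and -0.128, edgeR adjusted p = 0.223, in batch LA).

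Among the Ndufaf assembly factors, Ndufaf6 stood at 5.7, 5.26 and 4.28 FPKM in hearts labelled shRNA and 11, 12.4 and 11 FPKM in controls of batch LC (-1.17 ± 0.12, edgeR adjusted p = 1.12e-07). Ndufaf1 fell by 1.15 ± 0.09, and Ndufaf5 least, by 0.50 ± 0.12, a call lost with scaling by library totals alone (-0.0729, edgeR adjusted p = 0.56). The assembly factors were far less abundant than the subunits: their sum averaged 69.8 FPKM in hearts labelled shRNA and 129 FPKM in controls of batch LC, and that of complex I 3463 and 6874 FPKM.

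**Figure D3:**
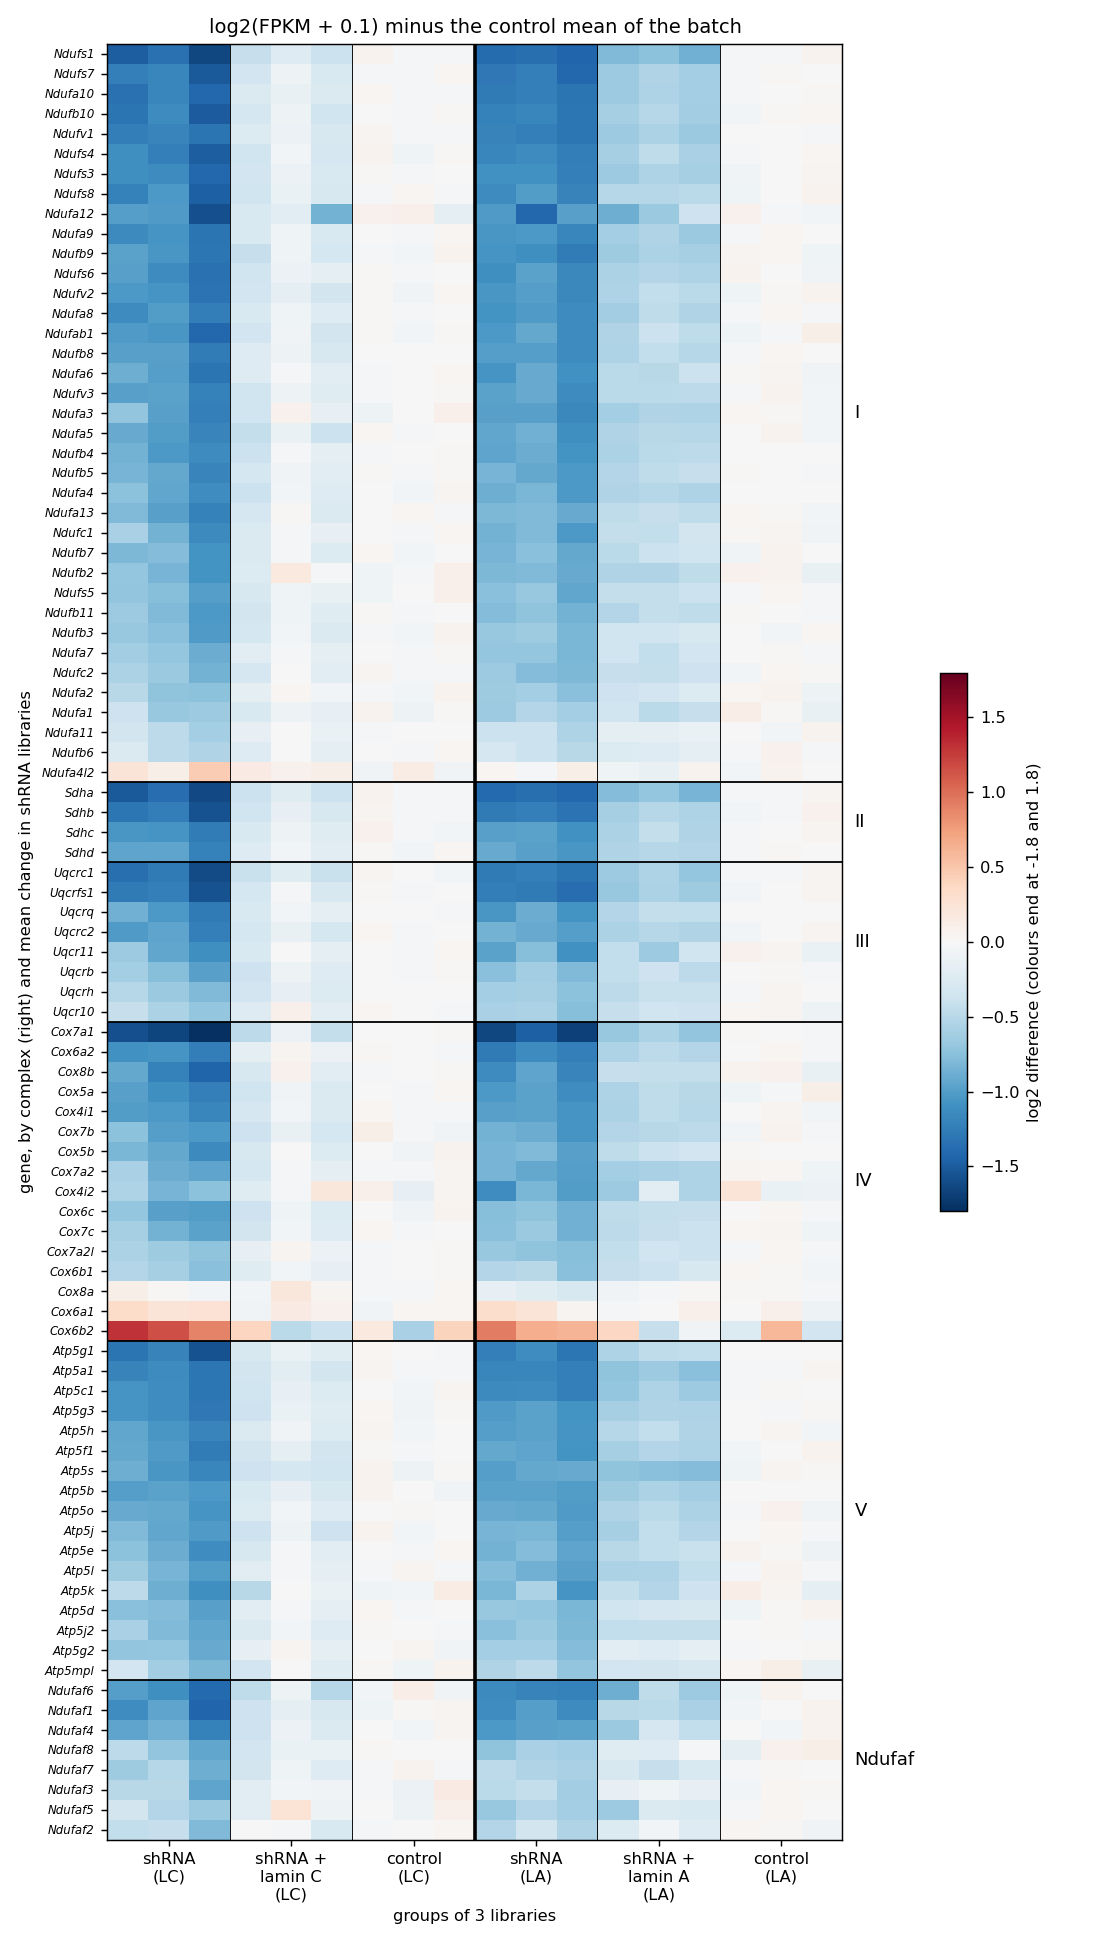
Tested genes (90 of 91, down the page, by complex) in each of 18 libraries (across), as log2(FPKM + 0.1) minus the control mean of the batch, with colours that end at 1.8 in either direction. Nearly all genes are low in the libraries labelled shRNA, less so in lamin A hearts and least in lamin C hearts; Cox8a, Cox6a1, Cox6b2 and Ndufa4l2 stand apart.

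The exceptions of complex IV belong to its paired isoforms, and promoters are shown because the forms of a pair differ in their CpG content. Each sequence holds the 250 bases before the start in RefSeq (GRCm38.p6), 5' to 3' on the strand of the gene, with CpG dinucleotides in capitals. The muscle forms are Cox7a1 at chr7:30183921-30184170 (plus strand) and Cox8b at chr7:140900447-140900696 (minus strand). The general forms are Cox7a2 at chr9:79759854-79760103 (minus strand), Cox8a at chr19:7217617-7217866 (minus strand) and Cox6a1 at chr5:115348959-115349208 (minus strand). Sdha, at chr13:74350241-74350490 (minus strand), had the deepest fall of complex II. Cox6a2 and Ndufs1 are named only.
Cox7a1: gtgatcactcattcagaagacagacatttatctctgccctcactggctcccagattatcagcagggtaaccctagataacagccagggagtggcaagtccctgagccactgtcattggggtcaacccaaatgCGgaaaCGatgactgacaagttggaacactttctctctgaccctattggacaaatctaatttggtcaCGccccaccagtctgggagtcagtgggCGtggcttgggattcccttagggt
Cox8b: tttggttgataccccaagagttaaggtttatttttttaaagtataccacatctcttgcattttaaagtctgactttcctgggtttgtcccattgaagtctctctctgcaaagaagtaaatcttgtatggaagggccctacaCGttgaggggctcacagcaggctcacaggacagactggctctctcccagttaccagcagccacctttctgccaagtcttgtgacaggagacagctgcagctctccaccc
Cox7a2: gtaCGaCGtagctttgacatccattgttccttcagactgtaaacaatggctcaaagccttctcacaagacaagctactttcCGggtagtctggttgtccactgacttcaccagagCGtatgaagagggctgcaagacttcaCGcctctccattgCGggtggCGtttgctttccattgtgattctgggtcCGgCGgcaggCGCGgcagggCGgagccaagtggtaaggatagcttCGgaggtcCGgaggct
Cox8a: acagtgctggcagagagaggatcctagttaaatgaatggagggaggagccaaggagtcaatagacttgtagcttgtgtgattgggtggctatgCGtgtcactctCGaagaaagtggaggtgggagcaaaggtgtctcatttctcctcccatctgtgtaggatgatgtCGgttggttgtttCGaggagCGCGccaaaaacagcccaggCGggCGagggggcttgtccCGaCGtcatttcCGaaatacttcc
Cox6a1: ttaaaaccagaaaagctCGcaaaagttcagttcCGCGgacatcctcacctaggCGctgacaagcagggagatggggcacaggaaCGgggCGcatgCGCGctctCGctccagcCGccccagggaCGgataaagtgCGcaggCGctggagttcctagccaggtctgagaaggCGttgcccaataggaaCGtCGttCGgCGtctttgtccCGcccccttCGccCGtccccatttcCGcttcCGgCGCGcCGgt
Sdha: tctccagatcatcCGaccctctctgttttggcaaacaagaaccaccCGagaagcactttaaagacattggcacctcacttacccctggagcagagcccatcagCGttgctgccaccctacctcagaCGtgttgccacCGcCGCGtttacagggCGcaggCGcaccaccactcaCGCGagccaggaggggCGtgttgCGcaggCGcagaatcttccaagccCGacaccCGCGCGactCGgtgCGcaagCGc
The windows of the muscle forms Cox7a1 and Cox8b held 4 and 1 CpG, those of the general forms Cox7a2, Cox8a and Cox6a1 held 14, 11 and 26, and that of Sdha held 21. CpG counts were at hand for 68 tested genes of complexes I to V. Over these, the Spearman correlation of CpG count with log2 fold change in hearts labelled shRNA was -0.11 in batch LC and -0.06 in batch LA. These are descriptions over genes, and the part of CpG content in the changes was not tested.

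Cox6a1, the general form of subunit VIa, rose where its muscle partner fell. Cox6a1 stood at 105, 98.3 and 99.4 FPKM in hearts labelled shRNA, against 79.4, 85.5 and 85.3 FPKM in controls of batch LC, without overlap (0.28 ± 0.07, edgeR adjusted p = 0.00184). Batch LA had 106, 99.8 and 88.3 FPKM in hearts labelled shRNA, against 85.5, 90.7 and 79.7 FPKM in controls, with overlap (0.21 ± 0.07, edgeR adjusted p = 0.0167). That call was lost without control replicate 3 (edgeR adjusted p = 0.106), without replicate 1 of the hearts labelled shRNA (0.105) or without replicate 2 of them (0.0529). Cox6a2 stood at 628, 639.5 and 564 FPKM in hearts labelled shRNA, against 1355, 1331 and 1309 FPKM in controls of batch LC (-1.12 ± 0.06, edgeR adjusted p = 7.68e-12).

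The ratio of Cox6a2 to Cox6a1 was 5.98, 6.51 and 5.68 in hearts labelled shRNA, 15, 14.8 and 14.1 in lamin C hearts and 17.1, 15.6 and 15.3 in controls of batch LC. In batch LA it was 5.31, 6.24 and 6.56 in hearts labelled shRNA, 11.1, 11.4 and 10.4 in lamin A hearts and 15.9, 15.3 and 16.7 in controls. Lamin C hearts lay just below their controls, and lamin A hearts between the other groups of their batch.

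The other muscle forms also fell relative to their partners. Cox7a1 to Cox7a2 had a ratio of 2.04 ± 0.421 in hearts labelled shRNA, 3.71 ± 0.212 in lamin C hearts and 4.15 ± 0.0666 in controls of batch LC, and of 2.24 ± 0.196, 3.4 ± 0.21 and 3.57 ± 0.116 in hearts labelled shRNA, lamin A hearts and controls of batch LA (SD, n = 3 each). Cox8b to Cox8a had a ratio of 2.94 ± 0.374 in hearts labelled shRNA, 5.89 ± 0.256 in lamin C hearts and 6.77 ± 0.0929 in controls of batch LC, and of 3.22 ± 0.302, 4.46 ± 0.161 and 5.89 ± 0.346 in the same order in batch LA. Cox8a itself stood at 154, 146 and 138 FPKM in hearts labelled shRNA and 142, 142 and 147 FPKM in controls of batch LC, which overlap (0.03 ± 0.06, edgeR adjusted p = 0.688). It was called lower in batch LA, at 138, 131 and 125 FPKM in hearts labelled shRNA, against 155, 155 and 149 FPKM in controls (-0.21 ± 0.06, edgeR adjusted p = 0.00605), but scaling by library totals alone turned the value to 0.23 (edgeR adjusted p = 0.00133). With that scaling Cox8a was called higher in batch LC as well (0.456, edgeR adjusted p = 5.97e-07). A ratio of a pair does not depend on this scaling.

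Ndufa4 and Ndufa4l2 form a further pair. Ndufa4 carries a complex I name but is known as a complex IV subunit, and Ndufa4l2 is its hypoxia-inducible relative. Ndufa4 stood at 252, 220 and 194 FPKM in hearts labelled shRNA and 419.8, 405 and 435 FPKM in controls of batch LC (-0.91 ± 0.09, edgeR adjusted p = 1.67e-08). Ndufa4l2 stood at 16.5, 15.1 and 19.3 FPKM in hearts labelled shRNA and 13.4, 15.4 and 13.4 FPKM in controls of batch LC, which overlap. It was called higher (0.28 ± 0.09, edgeR adjusted p = 0.00834), but not without replicate 3 of the hearts labelled shRNA (edgeR adjusted p = 0.0716), and not in batch LA (0.04 ± 0.09, edgeR adjusted p = 0.679). With scaling by library totals alone Ndufa4l2 was called higher in both batches, with 0.708, edgeR adjusted p = 1.38e-06, for batch LC and 0.482, edgeR adjusted p = 0.000113, for batch LA. Its counts are uncertain, since Shmt2 overlaps it on the other strand with a mean count of 1474 against 634. The same limit holds for Ndufb2 (mean count 594, against 1034 for Braf on the other strand). It also holds for Ndufaf2 (503, against 907.5 for Smim15) and Ndufaf3 (622, against 1207 for Impdh2). The ratio of Ndufa4l2 to Ndufa4 was 0.0779 ± 0.0188 in hearts labelled shRNA, 0.0423 ± 0.00605 in lamin C hearts and 0.0335 ± 0.00382 in controls of batch LC, and 0.0744 ± 0.00907, 0.054 ± 0.00476 and 0.0384 ± 0.00125 in hearts labelled shRNA, lamin A hearts and controls of batch LA.

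Exact two-sided permutation tests within the batches compared the log2 ratios of 5 pairs between hearts labelled shRNA and controls. The difference was -1.41 for Cox6a2 to Cox6a1, -1.04 for Cox8b to Cox8a, -0.86 for Cox7a1 to Cox7a2 and 1.07 for Ndufa4l2 to Ndufa4. Each had an exact p of 0.005, the smallest that 400 arrangements allow, and of 0.00625 after Benjamini-Hochberg adjustment over the 5 pairs. For these ratios all 6 libraries labelled shRNA lay outside the range of their controls. Cox4i2, known as a lung form of subunit IV, had a ratio to Cox4i1 of 0.0142 ± 0.0013 in hearts labelled shRNA and 0.0111 ± 0.000839 in controls of batch LC, and of 0.0139 ± 0.00143 and 0.0139 ± 0.00208 in batch LA (difference 0.18, exact p = 0.12, 0.12 adjusted). Both genes of that pair fell in both batches, Cox4i2 not in batch LC with scaling by library totals alone (-0.279, edgeR adjusted p = 0.0882).

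**Figure D4:**
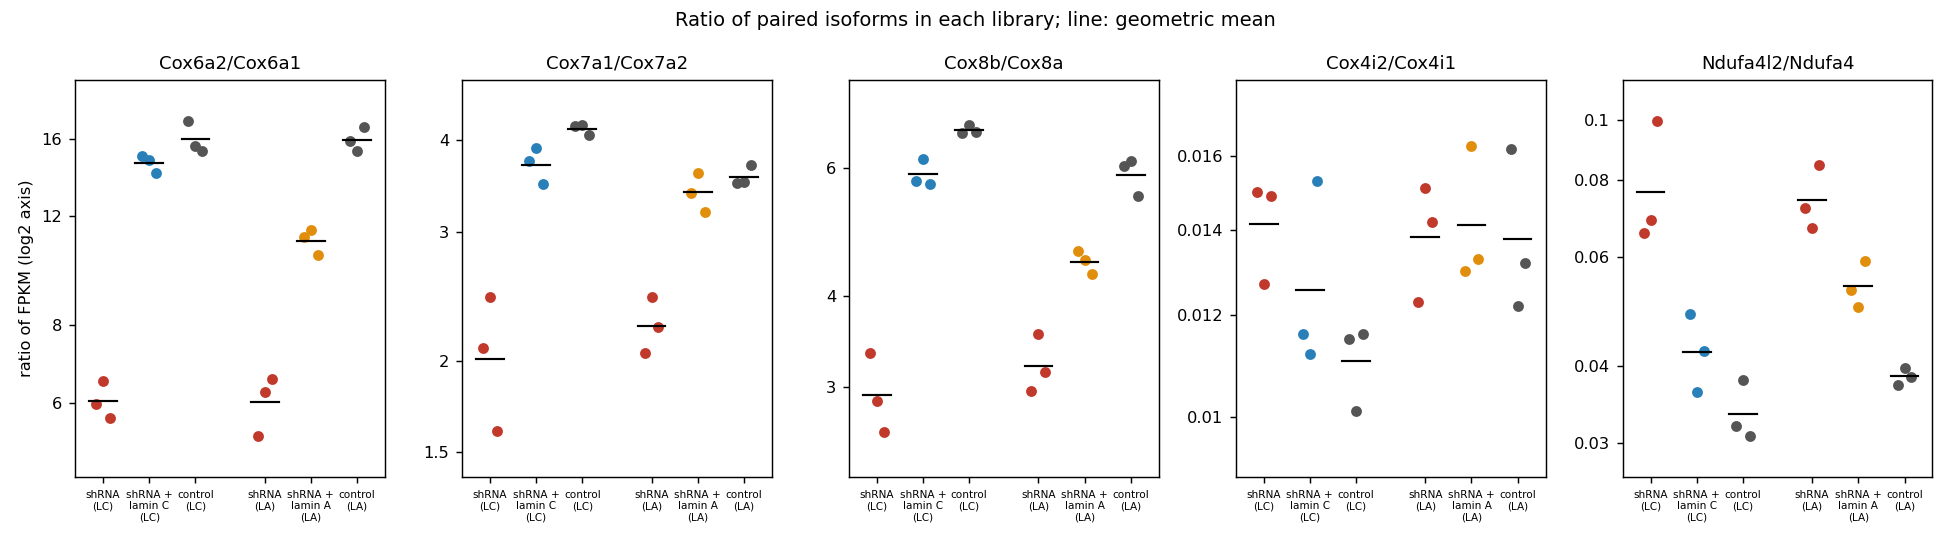
FPKM ratio of paired isoforms in each library on log2 axes, with the geometric mean as a line; each panel has its own range. For Cox6a2 to Cox6a1, hearts labelled shRNA lie between 5.31 and 6.56, lamin C hearts between 14.1 and 15, lamin A hearts between 10.4 and 11.4 and controls between 15.3 and 17.1.

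Cox6b2, known as the testis form of subunit VIb, was barely detected. It stood at 1.75, 1.58 and 1.29 FPKM in hearts labelled shRNA, against 0.751, 0.403 and 0.886 FPKM in controls of batch LC (1.19 ± 0.33, edgeR adjusted p = 0.00417), and was not called in batch LA (0.73 ± 0.32, edgeR adjusted p = 0.0528). It was called higher in batch LA by DESeq2 (adjusted p = 0.0456), by limma on log2(FPKM + 1) (adjusted p = 0.0266) and by edgeR scaled by library totals alone (1.16, edgeR adjusted p = 0.00306). Its partner Cox6b1 stood at 489, 464 and 419 FPKM in hearts labelled shRNA, against 696, 703 and 715 FPKM in controls of batch LC, and fell by 0.62 ± 0.07.

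No difference between the batches' shRNA effects passed the test for any member. Of 91 members, 0 were called by edgeR (1 at an unadjusted p under 0.05, Cox8a) and 0 by DESeq2, where 0.00559% of all genes were called higher and 0% lower. The smallest adjusted p among members was 0.701 in edgeR. The batches share no library, and 86 of the 91 pairs of log2 fold changes lay within 0.15 of each other.

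Lamin C hearts had higher levels of nearly the whole chain than hearts labelled shRNA of their batch. In complexes I to V 79 of 83 genes were higher and 2 lower, where 25.7% of all genes were called higher and 28.4% lower, with a median of 0.78 against -0.04 over all genes. The 8 Ndufaf genes were all higher (median 0.52), and 78 genes of the complexes were higher without overlap (28.8% of all genes). Cox7a1 rose most, to 707, 908 and 728 FPKM in lamin C hearts, against 325, 310.2 and 196 FPKM in hearts labelled shRNA (1.49 ± 0.13, edgeR adjusted p = 1.22e-08). Sdha rose to 316, 353 and 315 FPKM, against 145, 159 and 133 FPKM (1.16 ± 0.06, edgeR adjusted p = 5.3e-11). By complex, medians were highest for complex II (1.01) and lowest for complex IV (0.65). The genes called lower were Cox6a1 (-0.22 ± 0.07, edgeR adjusted p = 0.0115, lost without 2 of the libraries in turn) and Cox6b2 (-1.39 ± 0.33, edgeR adjusted p = 0.00146). Cox6a1 stood at 79.5, 92.7 and 87.7 FPKM in lamin C hearts and 105, 98.3 and 99.4 FPKM in hearts labelled shRNA. With scaling by library totals alone 76 of the 91 members were higher and 4 lower, Cox8a among them (-0.272, edgeR adjusted p = 0.000306). Of all genes 51.5% were then called lower, and the share called higher was not counted. Complexes I to V then had a median of 0.466, against -0.355 over all genes.

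In lamin A hearts 75 of 83 genes of complexes I to V were higher than in hearts labelled shRNA of their batch and 0 lower, where 16.1% of all genes were called higher and 13.7% lower in edgeR. Members with lower values at an unadjusted p under 0.05 were 2, Cox6a1 and Cox6b2, and DESeq2 called 1. The median of the complexes was 0.45, 6 of 8 Ndufaf genes were higher, and 80 genes of the complexes were higher without overlap (23.5% of all genes). Cox7a1 again rose most, to 531, 572 and 518 FPKM in lamin A hearts, against 274, 308 and 266 FPKM in hearts labelled shRNA (0.93 ± 0.13, edgeR adjusted p = 2.03e-05). Sdha rose to 232, 246 and 222 FPKM, against 152, 156 and 149.6 FPKM (0.61 ± 0.06, edgeR adjusted p = 9.7e-07). Atp5g1 (0.73 ± 0.07) and Ndufs7 (0.70 ± 0.08) led complexes V and I. Ndufb6 (0.17 ± 0.07, edgeR adjusted p = 0.081) and Atp5s (0.19 ± 0.07, edgeR adjusted p = 0.0541), known as coupling factor B of the synthase, did not pass. With scaling by library totals alone both had values below 0 (-0.0285, edgeR adjusted p = 0.761, for Ndufb6 and -0.0139, edgeR adjusted p = 0.895, for Atp5s). Of the 91 members 56 were then higher and 3 lower, where 34.7% of all genes were called lower. The share of all genes called higher was not counted with this scaling. Complexes I to V then had a median of 0.249, against -0.205 over all genes.

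Against their own controls, lamin C hearts were lower in part of the chain. Of 83 genes of complexes I to V, 26 were called lower, as was 1 Ndufaf gene (Ndufaf1), where 6.18% of all genes were called lower. None was called higher by edgeR (0 at an unadjusted p under 0.05, 0 by DESeq2), where 8.87% of all genes were. The median was -0.20, and 50 genes lay below their controls without overlap (14.8% of all genes). Called lower were 12 of 38 genes of complex I, 2 of 4 of complex II, 3 of 8 of complex III, 2 of 16 of complex IV and 7 of 17 of complex V. The summed chain stood at 81.1%, 95.4% and 84.4% of the control mean, with replicate 2 above the others in every complex. The 27 calls among all members became 57 without that library, 6 without lamin C replicate 1, 8 without lamin C replicate 3, 11 without control replicate 1 and 17 without control replicate 3. Scaling by library totals alone left 6 lower and 1 higher, Cox8a, where 1.64% of all genes were called lower. The median of complexes I to V was then -0.09.

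The lowest called values in lamin C hearts against controls were those of Atp5s (-0.35 ± 0.07, edgeR adjusted p = 0.00234), Ndufs1 (-0.34 ± 0.07, edgeR adjusted p = 0.00221) and Uqcrc1 (-0.34 ± 0.07, edgeR adjusted p = 0.00352). Ndufs1 stood at 83.3, 95 and 85 FPKM in lamin C hearts and 116, 109 and 109 FPKM in controls, without overlap. Ndufa12 had a lower value that did not pass (-0.42 ± 0.17, edgeR adjusted p = 0.0974): its libraries stood at 85.3, 89.7 and 57.5 FPKM in lamin C hearts and 109, 109.8 and 92.6 FPKM in controls. It passed with no filter on low counts (edgeR adjusted p = 5.54e-07) and with the replicate block (edgeR adjusted p = 0.0146). Cox6a2, at 1195, 1373 and 1235 FPKM in lamin C hearts and 1355, 1331 and 1309 FPKM in controls, overlapped its controls (-0.07 ± 0.06, edgeR adjusted p = 0.498; 0.0426, edgeR adjusted p = 0.637, by library totals alone).

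In lamin A hearts 78 of 83 genes of complexes I to V and 5 of 8 Ndufaf genes were lower than in controls, where 22.1% of all genes were called lower. By edgeR 0 were higher (0 at an unadjusted p under 0.05, 0 by DESeq2), where 24.1% of all genes were. The median was -0.50 against 0.02 over all genes, and 79 genes of the complexes lay below their controls without overlap (27.3% of all genes). The summed chain stood at 68.5%, 71.3% and 70.1% of the control mean. Ndufs1 was lowest, at 61.4, 64 and 58.3 FPKM in lamin A hearts, against 104, 104 and 111 FPKM in controls (-0.79 ± 0.07, edgeR adjusted p = 1.81e-08). Sdha (-0.77 ± 0.06), Atp5s (-0.76 ± 0.07) and Atp5a1 (-0.71 ± 0.05) came next. The genes of the complexes that were not called were Ndufa4l2, Ndufa11, Cox6a1, Cox8a and Cox6b2, with values between -0.15 and 0.03. Scaling by library totals alone left 63 members lower and called 2 higher, where 9.85% of all genes were called lower. The median of complexes I to V was then -0.26.

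**Figure D5:**
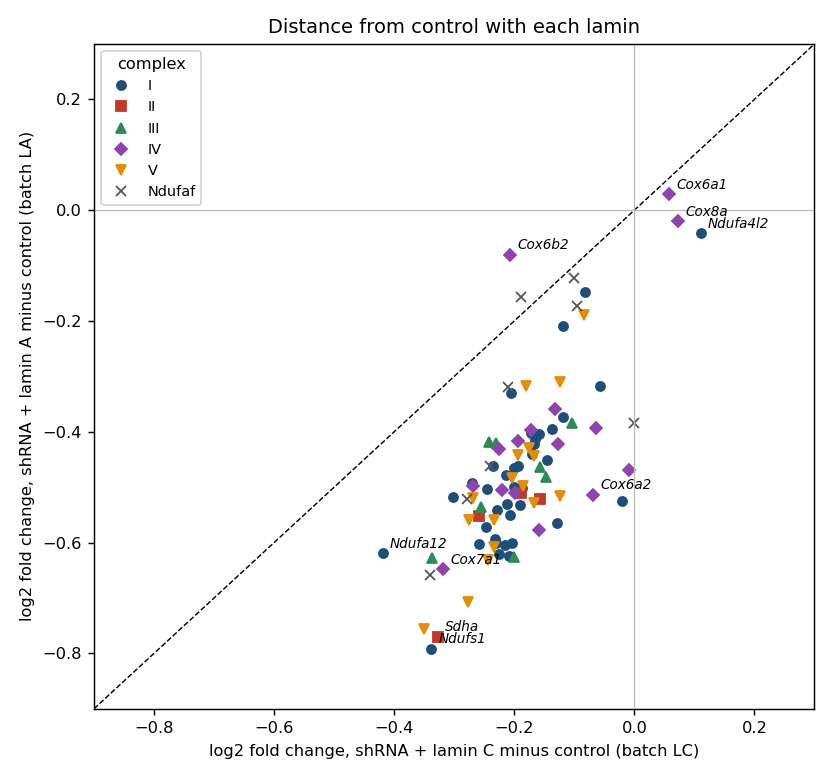
Log2 fold change against control in lamin C hearts (horizontal axis, batch LC) and in lamin A hearts (vertical axis, batch LA) for each of 91 tested genes, marked by complex, with the line of equal values. Of the genes, 89 lie below the line, with a lower value in lamin A hearts, and 2 above it.

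The difference itself was tested as the lamin C effect minus the lamin A effect, each against the hearts labelled shRNA of its batch. Of 91 members 41 were called higher, where 8.84% of all genes were, and 0 lower, where 9.9% were (67 higher and 0 lower at an unadjusted p under 0.05 in edgeR, 55 and 0 called by DESeq2). They were 17 of 38 genes of complex I, 4 of 4 of complex II, 4 of 8 of complex III, 5 of 16 of complex IV and 11 of 17 of complex V, with 0 of 8 Ndufaf genes. Among those with the smallest p were Sdha (0.55 ± 0.09, edgeR adjusted p = 0.00031), Ndufs1 (0.55 ± 0.10, edgeR adjusted p = 0.000611) and Atp5a1 (0.46 ± 0.08, edgeR adjusted p = 0.000449). Without replicate 1 of the hearts labelled shRNA of batch LC 65 members were called, against 26 without lamin C replicate 2, and 27 higher and 1 lower (Cox8a) with scaling by library totals alone. That scaling called 15.4% of all genes lower, and the share called higher was not counted. Complexes I to V then had a median difference of 0.218, against -0.124 over all genes. In the same test 7 of 12 cardiomyocyte markers were higher (median 0.35), 9 of 10 fibroblast markers lower (median -1.36) and 9 of 11 macrophage markers lower (median -0.91). Their part in the members' difference was not tested.

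Measured from the controls of each batch, 28 of 91 members were called higher in lamin C than in lamin A hearts, where 7.29% of all genes were, and 0 lower, where 7.35% were (62 higher and 0 lower at an unadjusted p under 0.05 in edgeR, 39 and 0 called by DESeq2). They were 11 genes of complex I, 3 of complex II, 2 of complex III, 4 of complex IV and 8 of complex V. Atp5a1 (0.43 ± 0.08, edgeR adjusted p = 0.00107), Ndufv1 (0.42 ± 0.08, edgeR adjusted p = 0.00115) and Cox6a2 (0.44 ± 0.08, edgeR adjusted p = 0.00165) had the smallest p of complexes V, I and IV. The count was 16 without lamin C replicate 2, 13 with scaling by library totals alone, 18 without control replicate 3 of both batches, 47 with no filter on low counts and 51 with only the groups compared in the fit. Scaling by library totals alone called 13.3% of all genes lower, and the share called higher was not counted. Complexes I to V then had a median difference of 0.16, against -0.129 over all genes. The level of Lmna RNA also differed between lamin C and lamin A hearts, so the kind of lamin and its amount cannot be told apart.

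Genes that assemble or serve the chain fell too in hearts labelled shRNA of batch LC, where 29.6% of all tested genes were called lower and 33.3% higher. All 10 tested complex I assembly factors outside the Ndufaf names fell, among them Foxred1 (-1.15 ± 0.06) and Ecsit (-1.14 ± 0.07), as did 4 of 4 for complex II, 6 of 6 for complex III, led by Uqcc1 (-1.41 ± 0.09), and 3 of 3 for complex V. For complex IV 16 of 21 fell, including the haem A enzymes Cox10 (-1.30 ± 0.05) and Cox15 (-0.90 ± 0.06). The 2 that rose were the copper-related factor Cox19 (0.59 ± 0.07, edgeR adjusted p = 1.75e-07) and Pet100 (0.29 ± 0.12, edgeR adjusted p = 0.0494). Of 14 genes for cytochrome c and coenzyme Q, the mobile carriers, 13 fell, among them Coq9 (-1.73 ± 0.09), Coq2 (-1.05 ± 0.06) and Coq7 (-0.97 ± 0.06) of coenzyme Q synthesis and Cycs (-0.99 ± 0.07), the somatic cytochrome c, while Coq10b was not called (-0.05 ± 0.19, edgeR adjusted p = 0.816). In batch LA 13 of these 14 fell, where 29% of all genes were called lower.

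Among the assembly factors in batch LA, 9 of 10 fell for complex I, 4 of 4 for complex II, 5 of 6 for complex III, 16 of 21 for complex IV and 3 of 3 for complex V. Cox19 rose there too (0.72 ± 0.07, edgeR adjusted p = 1.19e-08), while Pet100 was not called (0.05 ± 0.12, edgeR adjusted p = 0.734). With scaling by library totals alone, the complex IV assembly factors split into 7 lower and 4 higher in batch LC, and 7 lower and 3 higher in batch LA. Their medians were then -0.0354 and 0.0475. That scaling called 13.5% of all genes lower in batch LC and 12.7% in batch LA. The complex III factors split into 4 lower and 1 higher in each batch, and the complex II factors had 4 lower in batch LC and 2 in batch LA. For complex I 9 of 10 factors were lower in each batch, with 1 higher in batch LA, and for complex V 3 of 3 in each. Of the 14 carrier genes 13 were lower in batch LC, and 12 lower and 1 higher in batch LA.

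Among genes that the name rule leaves out, the subunits Cyc1 and Usmg5 fell in batch LC and the inhibitor gene Atpif1 rose. Cyc1, the cytochrome c1 of complex III, had a log2 fold change of -1.25 ± 0.08 and Usmg5 of complex V -0.90 ± 0.09 in batch LC. Atpif1, which encodes the inhibitor of ATP synthase, rose (0.34 ± 0.09, edgeR adjusted p = 0.00195). Of 13 mitochondrially encoded subunits 12 fell, with medians of -1.36 in batch LC and -1.53 in batch LA, among them mt-Nd5 (-1.36 ± 0.08 in batch LC) and mt-Co1 (-1.19 ± 0.07).

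Markers of heart cell types moved alongside the members. All 12 cardiomyocyte markers fell in hearts labelled shRNA, with medians of -0.98 and -0.98 in batches LC and LA, beside -0.99 and -0.96 for complexes I to V. The markers spread widely around these medians. In batch LC the shallowest fall was that of Actn2, with means of 445 FPKM in hearts labelled shRNA and 558 FPKM in controls. The deepest was that of Ckm, with 145 and 638 FPKM. The sum of the 12 markers was 7361 to 8541 FPKM in hearts labelled shRNA, 15420 to 16540 FPKM in lamin C hearts and 18120 to 18870 FPKM in controls of batch LC. In batch LA it was 7668 to 8080 FPKM in hearts labelled shRNA, 11330 to 11890 FPKM in lamin A hearts and 17300 to 17870 FPKM in controls. All 10 fibroblast markers rose, with sums of 1267 to 1756 FPKM in hearts labelled shRNA, 374 to 542 FPKM in lamin C hearts and 213 to 266 FPKM in controls of batch LC, and of 1579 to 1652 FPKM in hearts labelled shRNA, 1095 to 1443 FPKM in lamin A hearts and 248 to 273 FPKM in controls of batch LA. Of 11 macrophage markers 10 rose in each batch. Their sum was 985 to 1139 FPKM in hearts labelled shRNA, 454 to 535 FPKM in lamin C hearts and 241 to 312 FPKM in controls of batch LC, and 958 to 1078 FPKM, 897 to 953 FPKM and 278 to 296 FPKM in hearts labelled shRNA, lamin A hearts and controls of batch LA. Of 10 endothelial markers 9 fell and 1 rose. With scaling by library totals alone, 9 of the cardiomyocyte markers were lower in batch LC and 8 in batch LA, where 1 was higher. Of the 10 endothelial markers 4 were then lower in each batch, with 1 higher in batch LC and 2 in batch LA. In these bulk samples fewer cardiomyocytes and less RNA of these genes in each cannot be told apart, and the part of the cell types in the members' changes was not tested.

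Members with longer genes tended to have lower values in hearts labelled shRNA. Over the 83 tested genes of complexes I to V, counted gene length and log2 fold change had a Spearman correlation of -0.46 in batch LC and -0.38 in batch LA, given as descriptions over genes of the same libraries. In batch LC the median change was -0.79 for the 22 genes of up to 1000 bases, -0.95 for 31 of up to 2000, -1.13 for 19 of up to 4000 and -1.05 for 11 longer ones. Over all tested genes the medians of these classes were 0.02, 0.09, 0.09 and 0.02. The part of length in the order of the members was not tested.

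RefSeq promoters were matched to 76 of the 93 symbols, 2 of them through a synonym. The 250 bases before each start were searched on both strands. Shares are of genes for members and of promoters over all. The core bound by NRF1, a regulator of respiratory genes, GCATGCG, stood in promoters of 10 (13.2%, against 3.02% of all promoters) of the 76 genes. The core bound by ETS factors, CCGGAAG, stood in 14 (18.4%, against 6.91% of all promoters). The site of the oestrogen-related receptors, AAGGTCA, stood in 5 (6.58%, against 4.08% of all promoters). The YY1 core AAGATGG stood in 1 (1.32%, against 4.49% of all promoters), the MEF2 core in 1 (1.32%, against 3.2% of all promoters) and the E box CANNTG in 50 (65.8%, against 66.2% of all promoters). The NRF1 and ETS cores both contain CpG, of which the median promoter held 15 in members and 6 over all 32851 promoters. In hearts labelled shRNA of batch LC the median change was -0.86 for genes with the NRF1 core and -0.97 for those without, and -0.88 with the ETS core and -0.99 without. Among the sequences shown, Cox6a1 held the NRF1 core on both strands, overlapping itself, and the ETS core on the strand opposite the gene. A match describes letters in this window and not a bound site.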

How the data were processed

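RNA of 18 mouse heart libraries (6 groups of 3) was sequenced, per the labels' protocols, from polyadenylated RNA with a kit that marks the strand. StringTie 1.3.3b, DESeq2 1.20.0, featureCounts 1.5.0-p3, HISAT2 2.0.5 and build mm10 are named, without their roles, in the submitters' processing notes; the strand setting of counting is not stated. The gene counts were deposited by the authors unscaled. The FPKM values were deposited by the authors as well, and their implied library sizes were 1.02 to 1.032 times the TMM effective sizes.

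Counts, with a total of 31418657 to 41259968 per library, were fitted with edgeR 4.0.16 (R 4.3.3) with TMM scaling and filterByExpr, all 18 libraries in 1 model of 6 groups with 12 residual degrees of freedom. The quasi-likelihood F test was adjusted by Benjamini-Hochberg over 17876 genes, and standard errors come from the F statistic. The biological coefficient of variation was 9.13%. The test was tried on simulated counts in which few genes changed. These used the fitted library sizes, so they cannot judge the scaling. Levels use FPKM. Isoform ratios were compared by exact permutation within batches.

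The members and gene lists were chosen with earlier results of these data known. Genes named with values are the paired isoforms, the lowest and highest member of each complex in each comparison, members called against the majority, up to 10 called members by smallest p for differences between effects, and up to 3 called genes of each other list; Pet100, Cox19, Cycs, Coq10b, Usmg5, Atpif1 and members described by role were named after their values were seen. The values of 1 named member are not reported here. Alternatives were limma 3.58.1 on FPKM, DESeq2 1.42.0, other scalings and filters, and libraries left out. Promoters are from RefSeq, GRCm38.p6.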

Additional observations from a re-analysis of the deposited data

Results flagged for a closer look

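The lamin C effect minus the lamin A effect, each against the hearts labelled shRNA of its batch, passed the edgeR test for 41 of 91 members, all higher with lamin C. In the same order of subtraction, the change from control differed for 28 of 91 members, again all higher with lamin C. On the log2 scale, the 10 effect differences with the smallest p were Sdha 0.55, Sdhc 0.43, Ndufs1 0.55, Ndufa9 0.48, Ndufv1 0.42, Ndufa10 0.42, Atp5s 0.50, Atp5a1 0.46, Atp5g3 0.46 and Atp5b 0.40. For the change from control, genes with small p were Ndufs1 0.45, Sdha 0.44, Cox6a2 0.44, Atp5a1 0.43, Ndufv1 0.42, Ndufa10 0.39, Atp5c1 0.39, Atp5b 0.38 and Atp5o 0.36. Complex II was the complex in which all 4 genes passed for the effect difference. In the same test as the effect difference 7 of 12 cardiomyocyte markers were higher with lamin C, and 9 of 10 fibroblast and 9 of 11 macrophage markers lower; their part in it was not tested. Both differences use the same lamin libraries and are not independent of each other.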

How the results depend on the processing

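Of the log2 values of members named by rule, 2638 had the same direction and side of the threshold under the alternatives, 61 lost the call, 43 gained it and 38 turned, 3 of them values called before. Those that turned when scaled by library totals alone were Cox8a -0.272 in lamin C against hearts labelled shRNA, Cox6a2 0.0426, Cox7a2l 0.0462, Atp5g2 0.0277, Cox4i2 0.103, Uqcr10 0.00632 and Ndufaf5 0.109 in lamin C hearts against controls, Cox8a 0.226 in hearts labelled shRNA against controls of batch LA, Cox8a -0.0105 and Atp5s -0.0139 in lamin A against hearts labelled shRNA, and Atp5g2 0.0464, Cox8a 0.216, Ndufa4l2 0.194, Cox6b2 0.157 and Ndufaf3 0.112 in lamin A hearts against controls. With other settings that change no library or only the controls numbered 3 the turned values were Cox4i2 0.00554 and 0.0152, Ndufaf5 0.0143, 0.0029, 0.0058 and 0.0479 and Cox6b2 0.0174 in lamin C hearts against controls, and Cox6a1 -0.0237 in lamin A hearts against controls, and leaving out 1 library at a time gave values on both sides of 0 for Cox8a -0.00828 to 0.0665 in hearts labelled shRNA against controls of batch LC, Cox8a -0.0273 to 0.101 in lamin C against hearts labelled shRNA, Cox4i2 -0.125 to 0.0871, Cox6b2 -0.579 to 0.0181 and Ndufaf5 -0.141 to 0.0903 in lamin C hearts against controls, and Cox6b2 -0.326 to 0.324, Cox6a1 -0.0234 to 0.0709 and Cox8a -0.0443 to 0.000827 in lamin A hearts against controls. Over all 91 members and the 6 comparisons of groups, scaling by library totals alone lost 88 calls, gained 11 and turned 8 called values, among them those of Ndufb6 and Ndufa11. With that scaling members called were 4 lower for lamin C against labelled shRNA, 6 lower and 1 higher for lamin C against control, 4 higher for labelled shRNA against control in batch LA, 3 lower for lamin A against labelled shRNA, 2 higher for lamin A against control, 27 higher and 1 lower for the lamin effect difference and 13 higher for the difference from control. The cause was not tested. Of all genes it called 51.5% lower for lamin C and 34.7% for lamin A against labelled shRNA. Against control these shares were 1.64% and 9.85%. Shares of all genes called higher were not counted with that scaling. For labelled shRNA against control in batch LA the 1 rise became 2 with no filter, with only the groups compared, with DESeq2 and with limma at either pseudocount (1 or 0.1), and 0 without control replicate 3 of both batches; for lamin A against labelled shRNA 1 member was lower with no filter, only the groups compared, DESeq2 or limma with 1 added. The difference from control gave 47 calls with no filter, 51 with only the groups compared and 18 without the controls numbered 3, and lamin C against control 16 and 15 lower with the last 2. Leaving out each library in turn gave 6 to 57 lower for lamin C against control, 1 to 3 lower for lamin C against labelled shRNA, 0 to 1 lower for lamin A against labelled shRNA, 0 to 2 higher for labelled shRNA against control in batch LA, 26 to 65 for the lamin effect difference and 16 to 39 for the difference from control; labelled shRNA against control had 87 lower each time in batch LC. Over all genes, the labelled shRNA effect difference between batches gave 1 call, but 247 with no filter, 47 without control replicate 3 of batch LC, 24 without the controls numbered 3, 8 with DESeq2 and 0 with the block; lamin C against control gave 2690, but 1507 without lamin C replicate 1 and 1752 without replicate 3, and the difference from control 2616, but 1713 without the controls numbered 3. Replicate numbers shared only a number (correlations of deviations -0.0459 to 0.0617); with the replicate block members called were 87 lower for labelled shRNA against control in batch LC and 88 in batch LA, 87 and 82 higher for lamin C and lamin A against labelled shRNA, 31 and 83 lower for lamin C and lamin A against control, 39 for the lamin effect difference and 28 for the difference from control. Depth limits Cox6b2, Cox7b2 and Cox8c, whose levels were near or at 0.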
